A study of Mus musculus with 8 samples.

Results

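The expression of brown and white adipocyte genes was followed in RNA flushed from the thoracic aorta of 4 mice in which Mef2c had been deleted in endothelium (EKO) and 4 control mice. The set held 39 genes of heat production, adipokine secretion, lipid storage, lipolysis, fatty acid synthesis and fatty acid oxidation, taken by gene symbol. A probe set that carried the symbol of 1 gene was present for 37 of the 39, out of 30063 genes with such a probe set on the array. The beta-adrenergic receptor gene Adrb3 and the acyl-CoA synthetase gene Acsl1 had none and are named only. Of the 37 measured genes, 34 had a mean level above the median of all probe sets, 6.14 on the log2 scale, and entered the comparison between groups, as did 16232 genes of the whole array. The mitochondrial carrier gene Ucp3, the deiodinase gene Dio2 and the leptin gene Lep lay below that level and are described by their values alone.

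All 8 mice were female, with the tamoxifen-inducible recombinase Cdh5-CreERT2 and floxed alleles of Mef2c (Mef2c f/f). The EKO mice received tamoxifen in sunflower seed oil with 10% ethanol, and their control littermates received the oil with ethanol alone. Injections were given on 5 days to mice aged 10 weeks, and tissue was collected 14 days after the first of them. Each array was hybridised with 5 ng of total RNA from a single aorta, collected by passing TRIzol through the lumen. The Cdh5 promoter drives the recombinase in endothelial cells, so cells of other kinds in the RNA would keep an intact Mef2c. Only the EKO mice received tamoxifen, so effects of the drug and of the deletion cannot be told apart.

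Mef2c itself read 9.56, 9.73, 9.66 and 10.03 on the EKO arrays, against 9.62, 9.79, 9.88 and 9.80 on the control arrays. The difference was -0.027 (SE 0.111, limma adjusted p = 0.946), so it was no larger than the spread between arrays, and the sources used here do not say whether its probes lie in the deleted stretch. Of 15 measured endothelial markers, 13 lay on all arrays above the median of the 5222 negative control probe sets, which was 7.34 to 7.45 on the 8 arrays. The endothelial genes Kdr and Robo4 lay below it on all arrays. That median serves as a reference level, and whether a gene below it was detected was not tested. Their list averaged 12.64 to 12.82 on the EKO arrays and 12.65 to 12.82 on the control arrays. Array medians over all probe sets were 6.10 to 6.24 in EKO and 6.06 to 6.15 in controls.

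Brown adipocytes oxidise fatty acids in mitochondria whose inner membrane carries UCP1, a protein that lets protons return without making ATP, so that the energy is released as heat. White adipocytes store triglyceride in a single large droplet coated with perilipins and secrete hormones such as adiponectin and leptin. Both kinds of cell depend on the nuclear receptor PPAR gamma. The fat that surrounds the thoracic aorta of the mouse resembles brown fat. In bulk RNA, fewer cells of a type and less RNA per cell cannot be told apart.

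No adipocyte gene passed the test between EKO and control aortas. At an adjusted p under 0.05 (limma, Benjamini-Hochberg over all genes tested), 0 of 34 adipocyte genes passed, against 0% of the 16232 genes. At an unadjusted p under 0.05, 1 of the 34 was past the threshold, against 8.93% of all genes. In 0 of the 34 were the EKO and control arrays separated without overlap, which held for 6.08% of all genes. The EKO mean was lower for 29 of the 34 and higher for 5, where 55.1% of all genes were lower in EKO, and the median difference was -0.32 among the adipocyte genes and -0.019 among all genes. This direction rested on single mice: without control array 3, 18 of the 34 were lower in EKO, without EKO array 2, 21 were, and without EKO array 1 or control array 2, 33 were. For each of the 37 measured genes, the larger of the within-group ranges exceeded the difference between the groups. Overlapping groups mostly give this result, and its share over all genes was not counted, so it marks nothing particular to these genes.

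These genes spread widely among mice. The range over the 8 arrays was at least 2 on the log2 scale, a 4-fold span, for 20 of the 34 genes, against 1.71% of all genes tested, and its median was 2.19, against 0.48 for all genes. The lowest value was on EKO array 2 for 19 of the 37 genes and on control array 2 for 14. The highest was on control array 3 for 21 genes, on control array 4 for 8 and on EKO array 1 for 6. Each group thus held mice with high and mice with low adipocyte transcripts. How often all genes were lowest or highest on each array was not counted. The first principal component of the 37 genes carried 91.6% of their variance in log2 units, and 82.3% once each gene was scaled to its own SD. Along it the EKO arrays stood at 5.12, -7.49, -3.61 and 1.40, and the control arrays at -1.63, -6.21, 6.73 and 5.69.

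**Figure D1:**
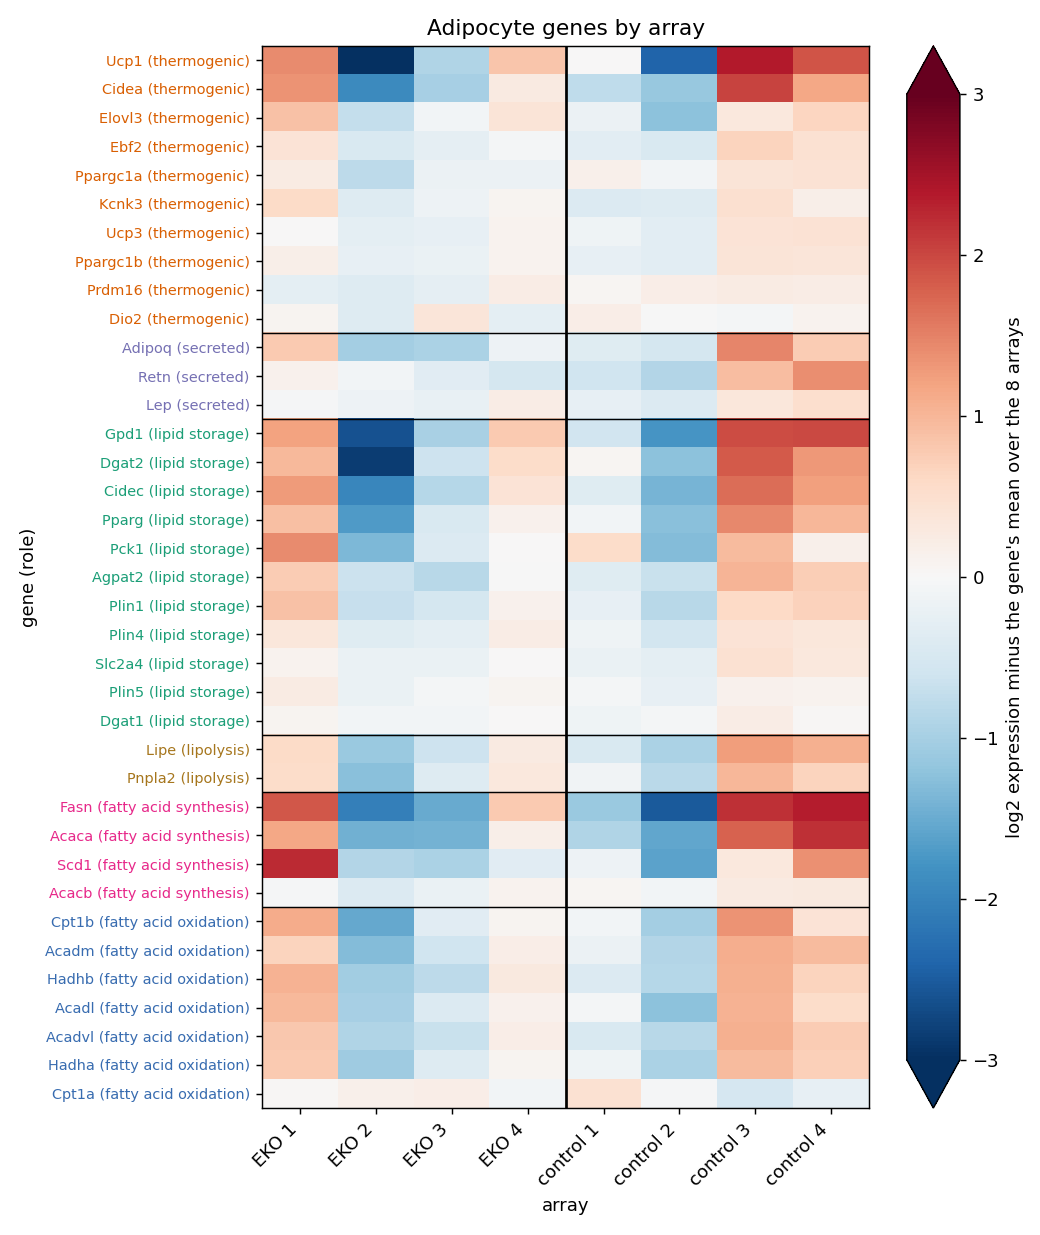
Rows are the 37 measured genes, grouped by role and coloured by it, and columns are the 4 EKO arrays left of the 4 control arrays. Colour gives the log2 expression minus the mean of that gene over the 8 arrays. EKO array 2 and control array 2 are blue in most rows, and EKO array 1 and control arrays 3 and 4 red, with Prdm16, Dio2 and Cpt1a apart from that pattern.

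The 5′ ends of genes that moved together across the arrays, and of a gene that did not, are shown because they let sequence be set beside the pattern. Windows of 300 bases, from 250 before to 50 after an annotated start, were held by RefSeq (build GRCm38.p6) for 27 of the 39 genes, 33 windows in all. The letters AGGTCA, the core recognised by nuclear receptors such as PPAR gamma and the thyroid hormone receptor, were searched on both strands, and capitals mark them in the windows of Ucp1 (chr8:83290098-83290397, plus strand), of the medium-chain acyl-CoA dehydrogenase gene Acadm (chr3:153944594-153944893, minus strand) and of the carnitine palmitoyltransferase gene Cpt1a (chr19:3323051-3323350, plus strand). Ucp1 and Acadm varied together over the arrays, whereas Cpt1a did not follow them.
Ucp1: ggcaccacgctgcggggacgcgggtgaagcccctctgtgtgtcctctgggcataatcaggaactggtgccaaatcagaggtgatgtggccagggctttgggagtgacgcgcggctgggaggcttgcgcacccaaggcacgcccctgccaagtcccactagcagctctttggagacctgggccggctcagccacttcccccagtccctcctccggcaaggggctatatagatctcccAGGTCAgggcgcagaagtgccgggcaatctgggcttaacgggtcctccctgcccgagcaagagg
Acadm: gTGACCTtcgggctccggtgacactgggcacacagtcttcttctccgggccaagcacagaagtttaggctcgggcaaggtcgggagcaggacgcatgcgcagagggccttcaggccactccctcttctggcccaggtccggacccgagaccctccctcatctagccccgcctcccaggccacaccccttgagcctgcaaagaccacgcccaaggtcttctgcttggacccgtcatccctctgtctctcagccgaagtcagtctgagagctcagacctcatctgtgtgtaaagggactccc
Cpt1a: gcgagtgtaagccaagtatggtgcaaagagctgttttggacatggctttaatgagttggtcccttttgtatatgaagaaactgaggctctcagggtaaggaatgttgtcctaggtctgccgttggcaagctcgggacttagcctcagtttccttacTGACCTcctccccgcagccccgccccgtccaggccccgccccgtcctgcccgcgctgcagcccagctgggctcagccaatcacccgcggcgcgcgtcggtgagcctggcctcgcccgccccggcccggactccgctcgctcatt

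The core was present in 10 of the 33 windows, those of Acacb, Acadm, Acadvl, Cpt1a, Plin5, Pparg, Ucp1 and Ucp3, against 16.3% of all 32851 windows of this length. The core repeated in the same direction with 1 base between, the arrangement bound by PPAR gamma with RXR, was in 0 of the 33 and in 0.0396% of all windows. The core thus stood in windows of some genes that followed Ucp1 and in that of Cpt1a. It was absent from the windows of Pnpla2, Cidec and Hadha, whose r to Ucp1 was 0.996, 0.983 and 0.981. A CCAAT box, searched as CCAAT, was in 10 of the 33 windows against 37.4% of all, TATAAA in 3 against 13.6%, and the GC box GGGCGG in 15 against 35.7%. The cyclic AMP response element TGACGTCA was in the window of Dio2 alone (1.79% of all windows) and the E box CACGTG in that of Lipe alone (7.15%). These matches describe letters in the windows and no binding.

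Hadha and Hadhb, which encode the alpha and beta subunits of the mitochondrial trifunctional protein, lie head to head, and their windows overlap by 228 bases. Both genes moved together over the arrays, and the window of Hadhb (chr5:30155003-30155302, plus strand) is shown with its 4 GC boxes (GGGCGG on either strand) in capitals.
Hadhb: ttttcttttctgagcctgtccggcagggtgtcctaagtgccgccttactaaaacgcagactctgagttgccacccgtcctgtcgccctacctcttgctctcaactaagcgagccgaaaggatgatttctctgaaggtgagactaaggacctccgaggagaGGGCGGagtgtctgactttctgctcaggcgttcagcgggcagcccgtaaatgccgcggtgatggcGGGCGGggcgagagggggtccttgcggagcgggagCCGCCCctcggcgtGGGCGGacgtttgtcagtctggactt

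Among the thermogenic genes, Ucp1 had the widest span. It read 15.78, 11.14, 13.45 and 15.20 on the EKO arrays, against 14.38, 11.96, 16.73 and 16.24 on the control arrays. The groups overlapped: EKO array 2 and control array 2 were the lowest of all, and control arrays 3 and 4 the highest, over a range of 5.59 that amounts to 48.1-fold. Ucp1 averaged 13.89 ± 2.08 in EKO and 14.83 ± 2.16 in controls (SD, n = 4 each), a difference of -0.94 (SE 1.26, limma adjusted p = 0.818) with a 95% interval of -3.81 to 1.94. That difference ran from -1.89 without control array 2 to -0.019 without EKO array 2.

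Cidea, which encodes a lipid droplet protein typical of brown fat, read 11.08, 7.82, 8.73 and 10.01 in EKO, against 8.97, 8.60, 11.77 and 10.88 in controls. Its order within each group was that of Ucp1, and its groups overlapped, with a difference of -0.65 (SE 0.875, limma adjusted p = 0.819). Elovl3, a fatty acid elongase induced by cold in brown fat, read 7.09, 5.47, 6.12 and 6.59 in EKO, against 6.01, 4.95, 6.51 and 6.83 in controls. It was 1 of 5 tested genes with a higher EKO mean, by 0.24 (SE 0.452, limma adjusted p = 0.874), and the difference reached -0.14 without control array 2.

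The transcriptional regulators of brown fat spanned less. Prdm16, a zinc finger protein that commits precursors to the brown lineage, read 10.40, 10.32, 10.43 and 10.92 in EKO, against 10.75, 10.89, 10.95 and 10.92 in controls. Its 3 lowest values were EKO arrays and the fourth EKO array lay among the controls. It was the gene past the unadjusted threshold, with a difference of -0.36 (SE 0.131, unadjusted p = 0.0236), and did not pass after adjustment (limma adjusted p = 0.534). The coactivator Ppargc1a, a regulator of mitochondrial biogenesis, differed by -0.45 (SE 0.207, limma adjusted p = 0.567). It read 6.92 to 7.93 in EKO and 7.62 to 8.12 in controls, which overlapped.

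Its relative Ppargc1b differed by -0.088 and the brown precursor factor Ebf2 by -0.18. Kcnk3, a potassium channel of brown adipocytes, was higher in EKO by 0.067. Of the 8 thermogenic genes tested, 6 were lower in EKO, 2 were higher and 0 passed. Dio2, which activates thyroid hormone within the cell, read 5.64, 5.15, 5.92 and 5.25 in EKO, against 5.74, 5.53, 5.49 and 5.66 in controls. Ucp3, a relative of UCP1 found mainly in muscle and brown fat, read 5.61 to 6.01 in EKO and 5.58 to 6.34 in controls. Dio2 and Ucp3 lay below the negative control median on all arrays, as did Elovl3, Ebf2, Lep, Plin5 and Slc2a4.

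**Figure D2:**
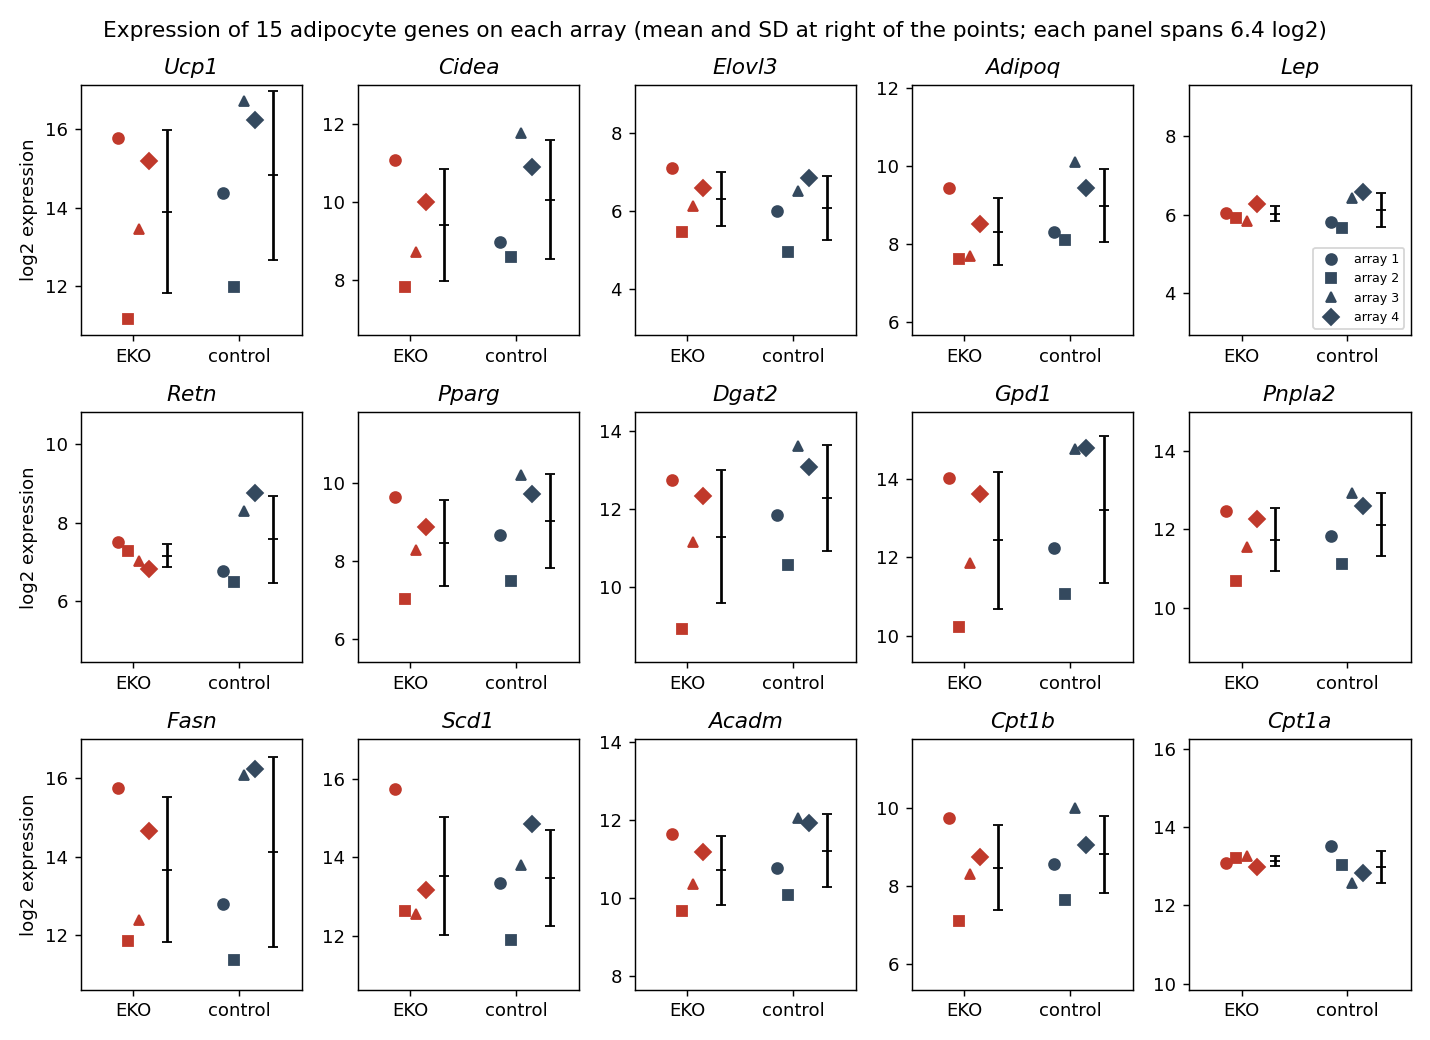
Log2 expression (vertical axis) of 15 genes on the 4 EKO arrays (left) and the 4 control arrays (right), 1 symbol per array, with the group mean and SD beside the points. The groups overlap in every panel, and the range over the 8 arrays is widest for Ucp1, whose values run from 11.14 to 16.73, while Lep and Cpt1a span less than 1.

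Of the secreted factors, Adipoq, the adiponectin gene, read 9.45, 7.63, 7.71 and 8.51 in EKO, against 8.30, 8.12, 10.11 and 9.43 in controls. Control array 3 was the highest and EKO array 2 the lowest, and the groups overlapped, with a difference of -0.67 (SE 0.534, limma adjusted p = 0.695). Lep, the gene of the satiety hormone leptin, read 6.04, 5.91, 5.85 and 6.28 in EKO, against 5.82, 5.66, 6.42 and 6.57 in controls, a span of 0.91. Retn encodes resistin, which mouse adipocytes secrete. It read 7.50, 7.29, 7.02 and 6.83 in EKO, against 6.76, 6.50, 8.29 and 8.76 in controls. Within EKO its lowest array was EKO array 4, which was among the high arrays for Ucp1, and control arrays 3 and 4 were its highest. Retn differed by -0.42 (SE 0.487, limma adjusted p = 0.791), and of the 2 secreted factors tested both were lower in EKO and 0 passed.

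Among the lipid storage genes, Dgat2, which catalyses the last step of triglyceride synthesis, read 12.75, 8.94, 11.16 and 12.34 in EKO, against 11.85, 10.56, 13.61 and 13.08 in controls. Its difference of -0.98 (SE 0.918, limma adjusted p = 0.736) was the largest in size of the 34 genes, and its range of 4.68 was larger still. That difference ran from -1.555 without control array 2 to -0.20 without EKO array 2. Dgat1, an unrelated enzyme of that same step, had a range of 0.34 and a difference of -0.038. Gpd1, which makes the glycerol 3-phosphate backbone of triglyceride, read 14.04, 10.22, 11.86 and 13.62 in EKO, against 12.24, 11.06, 14.78 and 14.81 in controls. It differed by -0.79 (SE 1.08, limma adjusted p = 0.821), and its groups overlapped.

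Cidec, which helps droplets fuse into large ones, read 9.78, 6.54, 7.64 and 8.91 in EKO, against 8.13, 7.12, 10.17 and 9.73 in controls. Pparg, the master regulator of adipocyte differentiation, read 9.65, 7.03, 8.29 and 8.86 in EKO, against 8.67, 7.49, 10.19 and 9.72 in controls. Both ranked the arrays nearly as Ucp1 did, and neither separated the groups. Pparg differed by -0.56 (SE 0.686, limma adjusted p = 0.798) and Cidec by -0.57 (SE 0.842, limma adjusted p = 0.835).

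The droplet coat genes differed by -0.11 (Plin1), -0.038 (Plin4) and 0.040 (Plin5), with ranges of 1.72, 0.95 and 0.50. The acyltransferase gene Agpat2 differed by -0.35. Slc2a4, the insulin-regulated glucose transporter GLUT4, differed by -0.14. Pck1, an enzyme of glycerol formation in fat, differed by -0.17 over a range of 2.75. Of the 11 storage genes, 10 were lower in EKO, 1 was higher and 0 passed.

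The lipases that release stored fat had similar patterns. Pnpla2, the gene of adipose triglyceride lipase, which starts triglyceride breakdown, read 12.48, 10.68, 11.55 and 12.26 in EKO, against 11.83, 11.13, 12.92 and 12.59 in controls. Lipe, the gene of hormone-sensitive lipase, read 9.91, 8.24, 8.72 and 9.62 in EKO, against 8.89, 8.41, 10.59 and 10.41 in controls. Both had a lower EKO mean, with differences of -0.38 for Pnpla2 (SE 0.482, limma adjusted p = 0.809) and -0.45 for Lipe (SE 0.564, limma adjusted p = 0.803), with overlapping groups, and 0 of 2 passed.

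The fatty acid synthesis genes Fasn, Scd1 and Acaca spanned 4.87, 3.85 and 3.76, against 5.59 for Ucp1. Fasn, the gene of fatty acid synthase, read 15.76, 11.85, 12.39 and 14.66 in EKO, against 12.78, 11.36, 16.09 and 16.23 in controls. In both groups 2 arrays were high and 2 low, and the difference of -0.45 (SE 1.28, limma adjusted p = 0.921) reached 0.26 without control array 4. Acaca, the acetyl-CoA carboxylase that makes malonyl-CoA for synthesis, read 11.84, 9.24, 9.27 and 10.88 in EKO, against 9.80, 9.14, 12.47 and 12.89 in controls. It differed by -0.77 (SE 0.955, limma adjusted p = 0.803), and the same pairs of arrays were high.

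Scd1, a desaturase that makes monounsaturated fatty acids, read 15.74, 12.63, 12.54 and 13.17 in EKO, against 13.33, 11.89, 13.81 and 14.86 in controls. EKO array 1 was its highest, and its difference of 0.048 (SE 0.817, limma adjusted p = 0.988) ran from -0.69 without EKO array 1 to 0.51 without control array 4. Acacb, the carboxylase whose malonyl-CoA restrains fatty acid entry into mitochondria, spanned 0.70 and differed by -0.27 (SE 0.129, limma adjusted p = 0.577). Of the 4 synthesis genes, 3 were lower in EKO, 1 was higher and 0 passed.

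Of the 7 fatty acid oxidation genes, all but Cpt1a were highest on control array 3, and all but Cpt1a and Acadl were lowest on EKO array 2. Cpt1b, the muscle and brown fat form of the enzyme that admits fatty acids to mitochondria, read 9.76, 7.11, 8.31 and 8.74 in EKO, against 8.56, 7.64, 10.01 and 9.07 in controls. Acadm read 11.63, 9.67, 10.35 and 11.17 in EKO, against 10.78, 10.09, 12.05 and 11.92 in controls. Hadhb read 13.38, 11.31, 11.56 and 12.65 in EKO, against 11.93, 11.50, 13.41 and 13.02 in controls. In each of these EKO array 2 was the lowest and control array 3 the highest. Their differences were -0.34 (Cpt1b, SE 0.621, limma adjusted p = 0.869), -0.50 (Acadm, SE 0.539, limma adjusted p = 0.771) and -0.24 (Hadhb, SE 0.555, limma adjusted p = 0.897).

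The long-chain and very long-chain dehydrogenase genes Acadl and Acadvl differed by -0.16 and -0.28, and Hadha by -0.29. Cpt1a, the form found in liver and many other tissues, read 13.09, 13.20, 13.26 and 12.99 in EKO, against 13.53, 13.02, 12.56 and 12.82 in controls. Control array 3, the highest for Ucp1, was its lowest, and its range was 0.96. It was higher in EKO by 0.15 (SE 0.186, limma adjusted p = 0.802). Of the 7 oxidation genes, 6 were lower in EKO, 1 was higher and 0 passed.

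**Figure D3:**
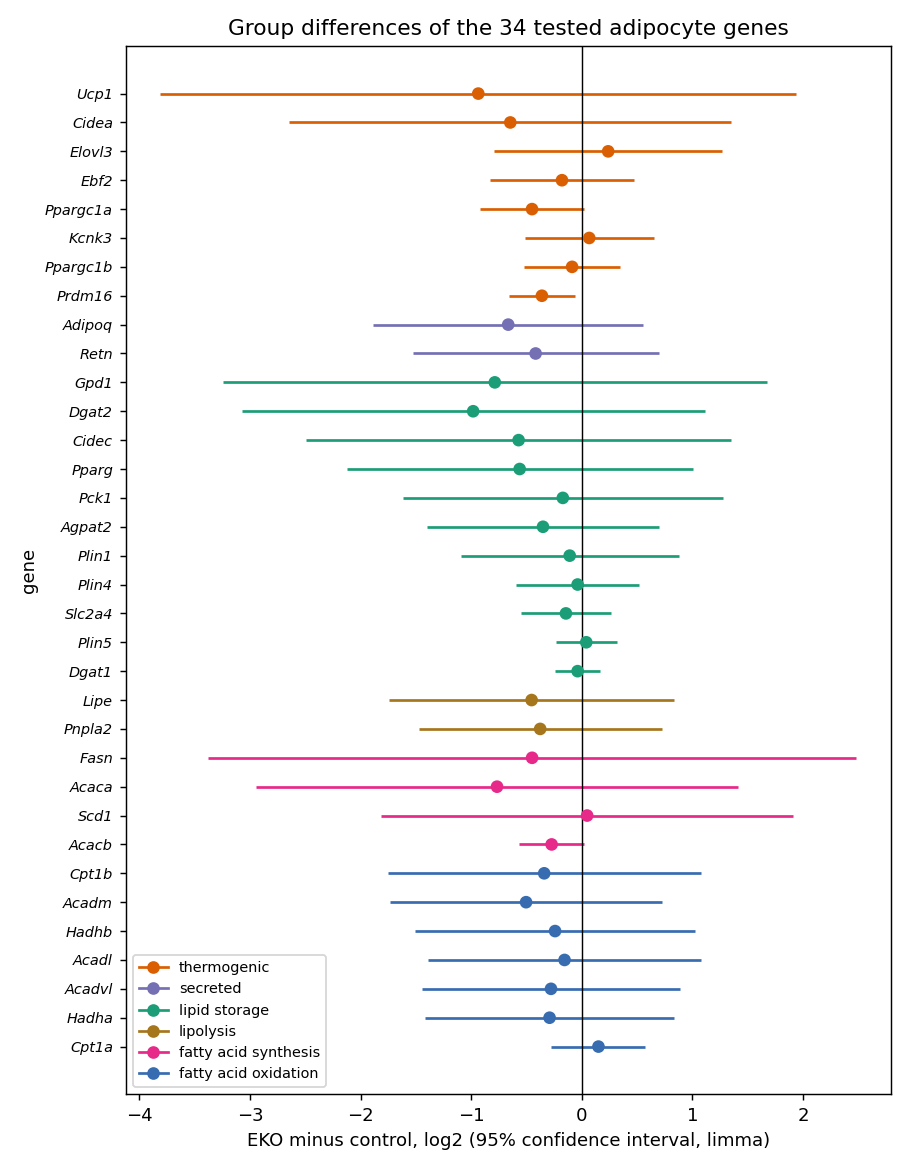
Points are the EKO minus control differences of the 34 tested genes on the log2 scale (horizontal axis), lines their 95% confidence intervals from limma, and colours the roles. Most points lie below 0, and the interval of Prdm16 is the only one of the 34 that does not reach 0 before adjustment over all genes.

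Averaged by role, each group of genes had a lower EKO mean. The difference was smaller than the SD of either group for every role but the secreted factors. Theirs, -0.39, was larger than the EKO SD and smaller than the control SD. The mean of the thermogenic genes was 8.07 ± 0.59 in EKO and 8.33 ± 0.63 in controls, and that of the secreted factors 7.17 ± 0.36 in EKO and 7.56 ± 0.81 in controls (SD, n = 4 each). Lipid storage genes averaged 8.77 ± 0.83 in EKO and 9.10 ± 0.84 in controls, and lipases 10.43 ± 0.79 in EKO and 10.85 ± 0.94 in controls. Synthesis genes averaged 12.06 ± 1.16 in EKO and 12.42 ± 1.41 in controls, and oxidation genes 11.27 ± 0.74 in EKO and 11.51 ± 0.75 in controls. When the array median entered as a covariate, the direction turned: the EKO mean was higher for all 6 roles, by 0.24 for the secreted factors, 0.45 for thermogenic, 0.57 for lipolysis, 0.63 for oxidation, 0.64 for storage and 1.16 for synthesis genes, and the cause was not tested. Without the covariate, the difference reached 0.097 for synthesis genes without control array 4 and 0.042 for oxidation genes without EKO array 2.

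Across the 8 mice, most of the adipocyte genes varied with Ucp1. Of 36 genes set against Ucp1, 19 had a Pearson r of at least 0.9, against 2.26% of the other 16231 tested genes, and the median r was 0.906, against 0.0738 over all tested genes. By the exact permutation test over all orders of the 8 arrays (two-sided, Benjamini-Hochberg over the 36 relations), 32 passed an adjusted p of 0.05 for r and 32 for Spearman's rho. Values on 1 array share that array's RNA and normalisation, and the genes were chosen as adipocyte genes, so this is a description of how closely they moved together. After the group means were subtracted, 21 genes had an r of at least 0.9 over the pooled deviations, so the co-variation did not rest on the difference between group means. No r was computed within a single group. For the permutation counts and for the 21, the share over all genes was not counted.

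The closest was Pnpla2, with r = 0.996 and rho = 1 (exact permutation, adjusted p = 0.000223 and 0.000357), and r was 0.994 without EKO array 2 and control array 2, the arrays farthest from the median of Ucp1. Pparg followed with r = 0.990 and rho = 1 (exact permutation, adjusted p = 0.000223 and 0.000357), and r = 0.971 without those arrays. Gpd1 reached r = 0.985 and rho = 0.976 (exact permutation, adjusted p = 0.000255 and 0.00110), with r = 0.978 without them, and Acadm r = 0.984 and rho = 1 (exact permutation, adjusted p = 0.000223 and 0.000357), with r = 0.995 without them. These closest genes had roles in storage, lipolysis and oxidation, but not all genes of those roles were close: Dgat1 had r = 0.768 and Cpt1a r = -0.528. The thermogenic gene Cidea had r = 0.946, and differences between roles were not tested. Without those arrays, 22 of the 36 had an r of at least 0.9, and the share over all genes was not counted for that setting.

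Adipoq, the hormone gene of white and brown adipocytes, had r = 0.884 and rho = 0.952 (exact permutation, adjusted p = 0.00718 and 0.00228), and r = 0.973 without the 2 farthest arrays. Lep had r = 0.787 and rho = 0.786 (exact permutation, adjusted p = 0.0288 and 0.0324), and r = 0.837 without them. Retn did not pass, with r = 0.644 and rho = 0.667 (exact permutation, adjusted p = 0.0931 and 0.0855), and r = 0.784 without them. The r of each secreted factor was below that of Pparg, a difference that was not tested.

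The other genes that did not pass were Prdm16, Dio2 and Cpt1a. Prdm16 had r = 0.469 and rho = 0.690 (exact permutation, adjusted p = 0.247 and 0.0757), and r = 0.555 without the 2 farthest arrays. Dio2 had r = 0.264 and rho = 0.119 (exact permutation, adjusted p = 0.524 and 0.793), and r = -0.546 without them. Cpt1a had a negative coefficient, r = -0.528 and rho = -0.667 (exact permutation, adjusted p = 0.190 and 0.0855), and r = -0.837 without them.

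**Figure D4:**
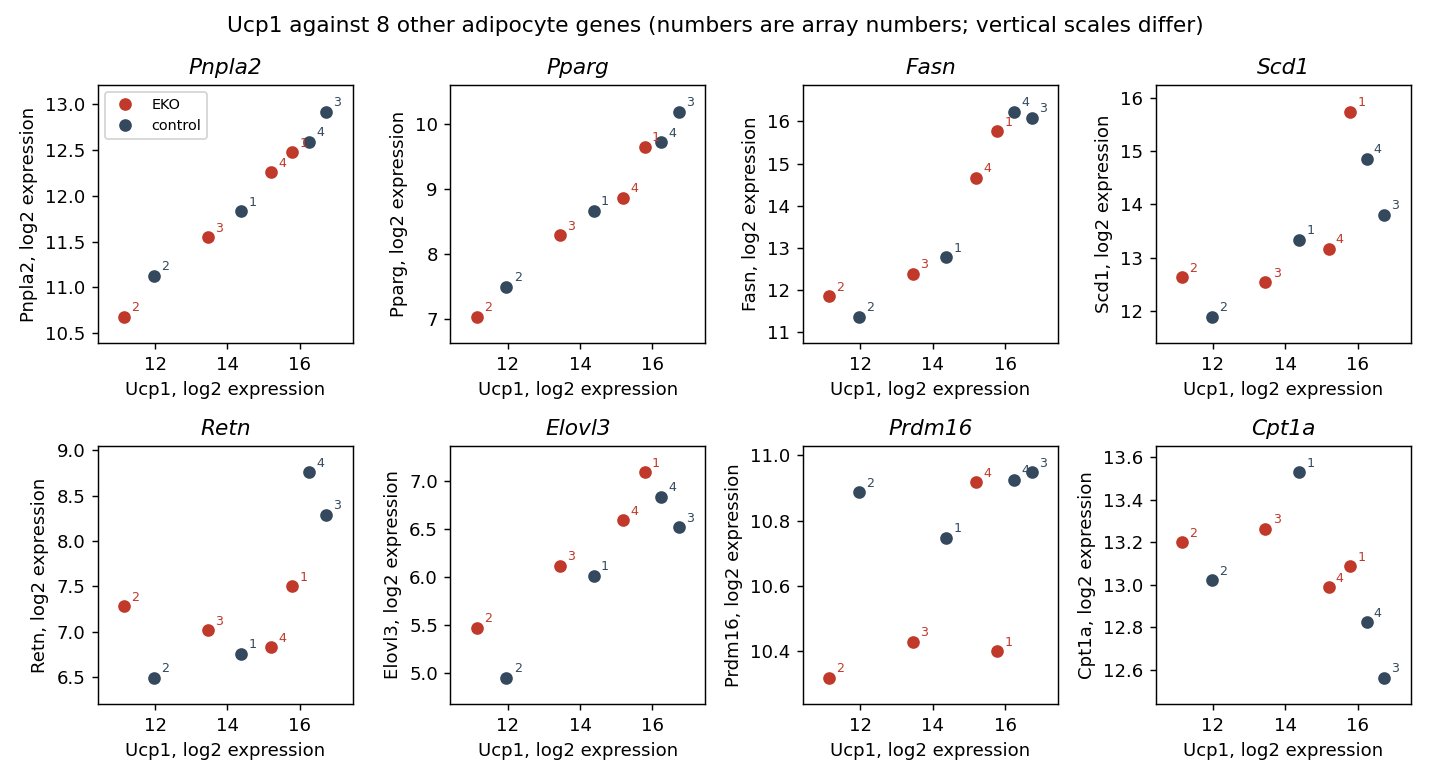
Log2 expression of 8 genes (vertical axes, which differ in scale) against that of Ucp1 (horizontal axes) on the EKO arrays (red) and the control arrays (dark blue), numbered by array. Pnpla2 and Pparg lie close to a line through both groups, Retn and Scd1 scatter more, and Cpt1a slopes downward.

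Within EKO, 25 of the 36 genes put the 4 mice in the order of Ucp1, within controls 19 did, and 17 did in both groups. The 17 included Cidea, Cidec, Adipoq, Pparg, Dgat2, Lipe, Pnpla2, Acadm and Hadhb. How many of all tested genes followed the order of Ucp1 was not counted, so these counts are a description alone. Between all 666 pairs of the 37 genes, the median r was 0.874, with a range of -0.876 to 0.996. Pairs within oxidation had a median r of 0.950, pairs within storage 0.904 and pairs within the thermogenic genes 0.742. Pairs of a storage and an oxidation gene had a median of 0.936, and pairs of a thermogenic and a secreted gene 0.758. The pairs share arrays and genes and are given as a description.

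**Figure D5:**
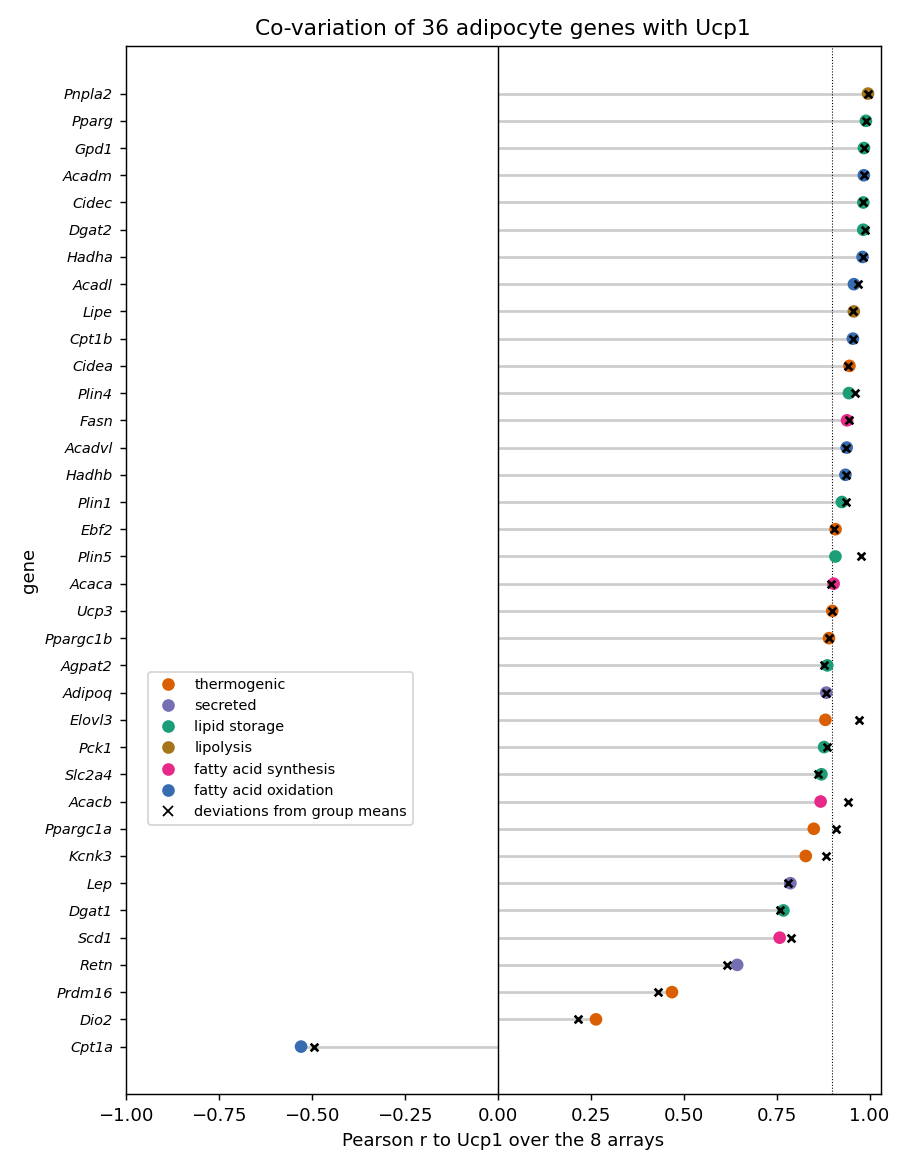
Filled points give the Pearson r of each of 36 genes to Ucp1 over the 8 arrays (horizontal axis), coloured by role, and crosses the r of deviations from the group means. The dotted line stands at 0.9, which 19 genes reach, and Cpt1a at -0.528 is the only one with a negative coefficient over the 8 arrays.

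Related genes were compared in pairs, in a family of 8 relations. Hadha and Hadhb, the head-to-head neighbours whose shared window is printed above, had r = 0.968 and rho = 1 (exact permutation, adjusted p = 0.00129 and 0.000198), with r = 0.949 without the 2 arrays farthest from the median of Hadha. Plin4 and Plin5, also neighbours, had r = 0.951 and rho = 0.905 (exact permutation, adjusted p = 0.00159 and 0.0122), with r = 0.882 without 2 arrays. Cidea and Cidec, which are not neighbours, had r = 0.986 and rho = 1 (exact permutation, adjusted p = 0.000595 and 0.000198), with r = 0.981 without 2 arrays. Close co-variation was thus seen in neighbouring and in separate genes.

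Pairs of enzymes of the same step, and the coactivators Ppargc1a and Ppargc1b, moved together less closely. Cpt1a and Cpt1b had r = -0.517 and rho = -0.595 (exact permutation, adjusted p = 0.185 and 0.132), with r = -0.415 without the 2 farthest arrays. Dgat1 and Dgat2 had r = 0.754 and rho = 0.810 (exact permutation, adjusted p = 0.0375 and 0.0290), with r = 0.626 without 2 arrays. Acaca and Acacb had r = 0.804 and rho = 0.857 (exact permutation, adjusted p = 0.0260 and 0.0171), with r = 0.524 without control arrays 3 and 4, so that relation rests largely on them. Ppargc1a and Ppargc1b had r = 0.676 and rho = 0.595 (exact permutation, adjusted p = 0.0653 and 0.132), with r = 0.602 without 2 arrays.

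The array median over all probe sets moved against Ucp1, with r = -0.827 and rho = -0.857 (exact permutation, adjusted p = 0.0223 and 0.0171) and r = -0.640 without EKO array 2 and control array 4. Its part in the co-variation was not tested. After quantile normalization, 23 of the 36 genes had an r to Ucp1 of at least 0.9, and the share over all genes was not counted there.

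When the Ucp1 level of each array was added to the comparison as a covariate, an alternative chosen after seeing the data, the fit by its construction took out what the other genes shared with Ucp1, whose own EKO mean was lower. Of the 33 other tested genes, 14 were then lower and 19 higher in EKO, and the median difference was 0.010, against -0.29 without the covariate. By limma 0 of the 33 passed after adjustment (0% of 16231 genes), and 4 had an unadjusted p under 0.05, where 8.59% of all genes did. These were Elovl3, higher by 0.56 (unadjusted p = 0.00282), and Ppargc1a, Acacb and Prdm16, with differences of -0.31 (unadjusted p = 0.0187), -0.19 (unadjusted p = 0.0284) and -0.32 (unadjusted p = 0.0391).

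Other genes of brown and white fat were compared in the same way. Of 24 further brown and beige fat symbols, 13 were tested, and 3 were higher, 10 lower and 0 passed, with a median difference of -0.38, against -0.019 over all genes. The 4 with the smallest p were Acot11, a thioesterase of brown fat (-0.71, limma adjusted p = 0.584), Tmem26, a beige adipocyte marker (0.15, limma adjusted p = 0.612), Cox8b, a respiratory chain subunit (-1.05, limma adjusted p = 0.700), and Letmd1, a mitochondrial protein of brown fat (-0.37, limma adjusted p = 0.744). Of the 13, 7 had an r to Ucp1 of at least 0.9, against 2.26% of all other tested genes. Among those named, the r was 0.971 for Letmd1, 0.932 for Cox8b, 0.852 for Acot11 and -0.724 for Tmem26. Tmem26 lay below the negative control median on all arrays.

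Of 32 further white fat and lipid droplet symbols, 26 were tested, and 2 were higher, 24 lower and 0 passed, with a median difference of -0.35. Those with the smallest p were the adiponectin receptor gene Adipor1 (-0.17, limma adjusted p = 0.567), the acyltransferase gene Gpam (-0.37, limma adjusted p = 0.609), the apolipoprotein gene Apoc1 (-0.70, limma adjusted p = 0.626) and the amine oxidase gene Aoc3 (-0.35, limma adjusted p = 0.636). Of the 26, 11 had an r to Ucp1 of at least 0.9, against 2.26% of all other tested genes, and r ran from -0.846 to 0.984. Aoc3 lay below the negative control median on all arrays, as did Gpat3, which had the lowest r and a range of 0.20.

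Of 27 symbols of adipocyte transcription factors and signalling, 17 were tested, and 3 were higher, 14 lower and 0 passed, with a median difference of -0.14. The corepressor gene Nrip1 (-0.37, limma adjusted p = 0.552), the thyroid hormone receptor gene Thra (-0.18, limma adjusted p = 0.633), the insulin receptor substrate gene Irs1 (-0.36, limma adjusted p = 0.639) and Cebpd, an early factor of adipogenesis (0.30, limma adjusted p = 0.699), had the smallest p. The r to Ucp1 was at least 0.9 for 3 of the 17, against 2.26% of all other tested genes, and the median r was 0.467. The 3, named after their values were seen, were Ppara at 0.946, the protein kinase A subunit gene Prkar2b at 0.973 and Cebpa, a factor of adipocyte differentiation, at 0.979.

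Among 11284 tested genes outside the set, leaving out predicted, clone, olfactory and vomeronasal receptor, microRNA and small nucleolar RNA symbols, the 10 most like Ucp1 over the 8 arrays were Pank1 (r = 0.990), Rbis (0.987), Car3 (0.984), Akt2-ps (0.983), Afg3l2 (0.982), Ppp1r14b (0.982), Grpel1 (0.982), Cpt2 (0.980), Cs (0.979) and Acaa2 (0.979). Cpt2, Acaa2 and Cs encode enzymes of fatty acid oxidation and the citrate cycle, and Car3 a carbonic anhydrase abundant in adipocytes. Pank1 ranged over 4.24 and Rbis over 0.47, so that a high r did not need a wide span. The 5 least like it were Nthl1 (-0.980), Fiz1 (-0.947), Flt3l (-0.947), Trav11n (-0.942) and Slc25a47 (-0.940), whose ranges were 0.17 to 0.55. Nthl1 and Slc25a47 read at most 6.97 and 6.92, below the negative control median on all arrays.

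Markers of other cell types were read on the same arrays, and their part in the spread of the adipocyte genes was not tested. The 15 endothelial markers had a median r to Ucp1 of 0.0971 and the 10 smooth muscle markers one of 0.0501. Smooth muscle markers averaged 7.65 to 8.10 in EKO and 7.48 to 7.81 in controls. Of 9 fibroblast markers tested, the median r was 0.578, and their list averaged 7.86 to 8.40 in EKO and 8.09 to 8.72 in controls. Of 6 macrophage markers tested, the median r was 0.694, and the list averaged 6.90 to 7.46 in EKO and 6.70 to 7.44 in controls. On all arrays, 6 of the 10 smooth muscle, 3 of the 9 fibroblast and 5 of the 8 measured macrophage markers lay below the negative control median. That limits what these lists can show.

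The adipocyte precursor genes, 4 tested, had a median r of 0.0320 and averaged 9.66 to 9.78 in EKO and 9.54 to 9.93 in controls. Mesothelial markers averaged 5.95 to 7.01 in EKO and 6.17 to 8.90 in controls, with control array 4 the highest. Neutrophil markers averaged 6.48 to 8.91 in EKO, with EKO array 2 the highest, and 5.98 to 7.57 in controls. Muscle markers averaged 5.93 to 6.48 in EKO and 5.78 to 6.74 in controls, Schwann cell markers 7.62 to 7.97 in EKO and 7.93 to 8.12 in controls, and lymphatic markers 6.29 to 6.84 in EKO and 6.48 to 6.92 in controls. The erythroid list had 1 measured gene, Alas2, which read 12.94 to 13.58 in EKO and 13.34 to 15.15 in controls. Below the negative control median on all arrays lay 10 of 12 measured muscle markers, 2 of 4 Schwann cell, 2 of 4 lymphatic and 1 of 4 mesothelial markers. The same held for 2 of 6 neutrophil markers and 2 of 6 precursor genes. In none of these lists did a gene pass the test.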

How the data were processed

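RNA from 8 aortas, each from a separate mouse, was measured on Affymetrix Mouse Transcriptome Arrays 1.0. The values deposited by the authors are log2 expression per probe set. Per the labels, they come from SST-RMA as run in Expression Console, a method that includes quantile normalization and so removes most differences in overall signal between arrays. The version of that program and the genome build of the array are not given in the sources used. The number of arrays, 4 per group, limits the precision of every value.

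The platform annotation gave 1 gene symbol to 30604 of the 72688 probe sets and several to 2146. It did not list 33206, and 6732 were array controls. Symbols were updated through RefSeq identifiers (1135 changed). Where a symbol had several probe sets (429 symbols), the one with the highest mean was used. Genes with a mean over 6.14, which is the median of all probe sets, entered a limma fit (version 3.58.1, R 4.3.3, lmFit and eBayes, no covariates, EKO minus control). P-values were adjusted by Benjamini-Hochberg over 16232 genes, with a threshold of 0.05. The fit was also run on data simulated with independent noise for each gene, which lack the co-variation among genes seen here. Correlations used exact permutation of the 8 arrays (Python 3.11.15). Groups came from the sample titles.

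The genes, their roles, the further lists and the tests were chosen with earlier results of these data known. All 39 genes are named. Values on every array are given for the 3 with the largest SD in each role and for Ucp1, Adipoq, Lep and Pparg, and in addition for Prdm16, Dio2 and Cpt1a, chosen after their values were seen. Each further pathway list names the 4 genes with the smallest p, and the 10 genes most and 5 least like Ucp1 are named. Alternatives covered probe set choice, normalization, level filter, variance model, array weights, threshold, replicate block, covariates and leaving out each array.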

Additional observations from a re-analysis of the deposited data

How the results depend on the processing

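By limma, 0 of the tested adipocyte genes passed under each alternative run for that count, namely both level filters, median over probe sets, quantile normalization, array median centring, eBayes with trend and robust fitting, array weights, an adjusted p under 0.1, the replicate block, Ucp1 as a covariate and leaving out each array. The unadjusted p was under 0.05 for 1449 of all genes, 880 of them higher in EKO. With array median centring it was 1724, of which 414 were higher in EKO, so that centring changed the split of directions, and without the level filter it was 2714. The sample titles number the replicates and do not say whether same-numbered mice were paired. Deviations of same-numbered arrays correlated at -0.16, 0.21, -0.24 and 0.13, which cannot decide it because all genes share the same few arrays. With the replicate block 0 adipocyte genes passed, 29 of 34 were lower in EKO and 1259 of all genes had an unadjusted p under 0.05. Signs of single genes turned under centring for Kcnk3 (-0.0081), Plin5 (-0.035) and Scd1 (-0.027), under array weights for Kcnk3 (-0.031) and Scd1 (-0.26), and under quantile normalization for Plin5 (-0.019). With Ucp1 as a covariate, added after seeing the data, they turned for Cidec (0.042), Ppargc1b (0.032), Ebf2 (0.010), Plin1 (0.19), Plin4 (0.13), Dgat1 (0.0017), Fasn (0.45), Gpd1 (0.00060), Pck1 (0.25), Cpt1b (0.099), Acadl (0.23), Acadvl (0.075), Hadha (0.066) and Hadhb (0.14). When the array median entered as a covariate, role means differed by 0.24 (secreted), 0.45 (thermogenic), 0.64 (lipid storage), 0.57 (lipolysis), 1.16 (synthesis) and 0.63 (oxidation), all higher in EKO, and the cause was not tested. Leaving out single arrays kept the sign of 18 of the 34 genes. The ranges of the 16 others were -0.14 to 0.52 (Elovl3), -0.21 to 0.026 (Ppargc1b), -0.37 to 0.015 (Ebf2), -0.11 to 0.23 (Kcnk3), -0.42 to 0.11 (Plin1), -0.23 to 0.089 (Plin4), -0.036 to 0.11 (Plin5), -0.084 to 0.028 (Dgat1), -1.37 to 0.26 (Fasn), -0.69 to 0.51 (Scd1), -0.67 to 0.25 (Pck1), -0.77 to 0.12 (Cpt1b), -0.59 to 0.17 (Acadl), -0.60 to 0.033 (Acadvl), -0.66 to 0.018 (Hadha) and -0.63 to 0.073 (Hadhb). The r of Dio2 to Ucp1 turned to -0.55 without EKO array 2 and control array 2, and that of Dgat1 was 0.705 after quantile normalization (exact permutation, adjusted p = 0.0541). Arrays give no counts. Signal below the negative control median on all arrays limits what Ucp3, Dio2, Lep, Elovl3, Ebf2, Plin5 and Slc2a4 can show.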

Other observations

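Scd1 was read by a further probe set, with lower values. It gave 12.60, 8.79, 9.07 and 10.33 on the EKO arrays, against 9.62, 8.25, 10.44 and 11.66 on the control arrays. As with the probe set used above, EKO array 1 was the highest, control array 2 the lowest and the groups overlapped. Of the 37 adipocyte genes, 22 lay above the negative control median on all arrays, 8 on some and 7 on none.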
